A study of Homo sapiens with 6 samples.

Results

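The transcriptome described here is the baseline of the human neuroblastoma line SH-SY5Y, carrying a control short hairpin RNA. The series holds 6 mRNA sequencing libraries in 3 groups of 2, from SH-SY5Y cells given lentivirus with a hairpin against CSA (gene ERCC8), against CSB (gene ERCC6) or with the control hairpin. The 2 control libraries, which the genotype label calls WT, were chosen by that label, and no level of the other 4 libraries is given. The control cells were transduced, selected with puromycin and kept for 2 to 3 weeks like the others, so they are not untreated cells. Nothing in the labels says whether the 2 libraries came from separate transductions, and the spread between them may be technical. Protein-coding genes were ranked by level, meaning reads scaled for library depth and divided by the length of the gene's exons in kb, as the mean of the 2 libraries. Of 32575 genes listed in any of the 6 tables, 16555 were protein-coding, and 16089 of these had a read in a control library. All levels below are scaled counts per kb, given for replicate 1 and then replicate 2 (n = 2 libraries).

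Neuroblastoma arises from the sympathoadrenal branch of the neural crest, the embryonic cells that also form sympathetic neurons and adrenal chromaffin cells. In that branch a small circuit of transcription factors, with HAND2 and GATA3 at its centre, switches on the enzymes that turn tyrosine into noradrenaline and the granins that pack it into vesicles. Neuroblastoma cells are known in an adrenergic state, which keeps this circuit, and a mesenchymal state closer to migrating neural crest. SH-SY5Y is a subclone of the SK-N-SH line and is widely used as a model of immature catecholaminergic neurons.

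The control libraries held 21288892 and 21983668 gene-assigned reads. Protein-coding genes took 96.5% ± 0.0112 (SD, n = 2) of the scaled counts. A gene was counted as expressed at 20 or more scaled counts per kb in each library, and 11278 of 16555 protein-coding genes (68.1%) met this. A further 1858 (11.2%) lay at or under 3 reads in each library, the number that a count of 0 still allows at 95%, for counting error only. These 2 percentages are the background against which every list below is read, together with the median level over all protein-coding genes of 82.9. Over genes with reads in both libraries, levels were close at high values and scattered at low ones: 95% of the 6896 genes at 100 to 1000 differed by less than 1.12-fold, 95% of the 3757 genes at 20 to 100 by less than 1.28-fold and 95% of the 2265 genes under 5 by less than 4.12-fold. ERCC8, at 45.1 and 44.8, and ERCC6, at 41.5 and 40.1, the targets of the other groups' hairpins, were both expressed here, below the median gene.

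**Figure D1:**
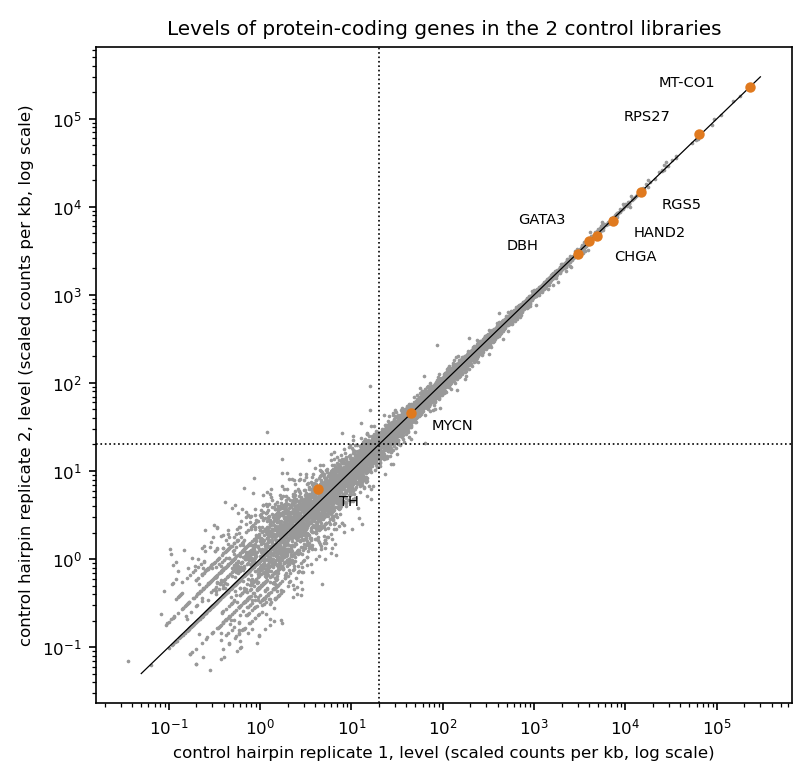
Level of each protein-coding gene with reads in both control libraries, replicate 1 on the x axis and replicate 2 on the y axis (scaled counts per kb, log scales; solid line, equality; dotted lines, 20 per kb). The cloud is narrow above 100 and wide below 5; the marker genes GATA3, HAND2, DBH and CHGA lie between 2880 and 7320, TH at 4.29 and 6.25.

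One property of the tables bears on every low level. Genes that share most of their exons with another gene were often low. In GENCODE v29, the 8714 protein-coding genes with no exonic base shared with another gene had a median level of 85.6, and 66.1% were expressed. The 205 genes that share 75 to 100% of their exonic bases had a median of 2.12, and 14.6% were expressed. RPL17 illustrates this: it makes a ribosomal protein needed by every cell, shares 98.2% of its coding bases with the readthrough gene RPL17-C18orf32 and stood at 10.9 and 19.9. EIF4A1, the helicase of translation initiation, shares 86.8% with SENP3-EIF4A1 and stood at 37.4 and 31.6. Low values of genes that share 50% or more of their exonic or coding bases (1025 protein-coding genes) are therefore uncertain and are marked where they appear. Sharing did not always go with a low value: LDHB and ALDOA share 93.5% and 93.8% of their coding bases and were high. Listed genes without an entry in any of the 6 tables were not analysed here and stay out of the counts.

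The most abundant transcripts came from mitochondria and from the translation machinery. The 13 mitochondrially encoded protein genes, which code for core subunits of the respiratory chain and ATP synthase, took 19.7% ± 0.0356 (SD, n = 2) of the summed level of protein-coding genes. Before division by length they took 5.08% ± 0.014 (SD, n = 2) of the scaled counts of all genes, so the larger share rests on that division. MT-CO1, a catalytic subunit of cytochrome oxidase, led all genes at 230039 and 231997, followed by MT-CO2 at 177322 and 180439 and MT-CO3 at 151524 and 160400.0. MT-ATP8, which overlaps MT-ATP6 on the same strand, was the lowest of the 13 at 456 and 312. Cytosolic ribosomal protein genes took 13.1 and 13.8% of the summed level, and 82 of 85 were expressed. The 100 highest genes carried 38.6% ± 0.436 (SD, n = 2) of the summed level. They comprised 52 ribosomal protein genes, 12 mitochondrially encoded genes and 36 others.

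Outside the mitochondrial genome the highest gene was RPS27, a small-subunit ribosomal protein, at 63428 and 67958. TMSB10, a small actin-binding peptide of migrating and neural cells, followed at 36146 and 37893. The elongation factors EEF1A1, which delivers aminoacyl-tRNA to the ribosome, and EEF2, which moves the ribosome along the message, stood at 29046 and 29103 and at 20932 and 20786. Of the 25 highest genes outside the mitochondrial genome, 16 were ribosomal protein genes, among them RPS27, RPS21, RPL13A, RPL41, RPS18, RPL8, RPS2, RPS12, RPL29, RPL7A, RPL35, RPS25, RPLP2, RPL11 and RPS4X. The other 9 were the cytoskeletal genes TMSB10, ACTB (18554 and 18926) and ACTG1 (13462 and 13539), both elongation factors, YBX1, HSP90AB1, SLC25A6 and RGS5. YBX1 makes an RNA-binding protein that coats messages, HSP90AB1 a chaperone and SLC25A6 an ADP/ATP carrier of the inner mitochondrial membrane. RGS5, a GTPase-activating protein that shortens G-protein signals and is best known from pericytes, stood beside these housekeeping genes at 14895 and 14782. Several short ribosomal protein transcripts were higher in replicate 2, among them RPS21 (27948 and 32479), RPL41 (26169 and 30099.7) and RPS12 (17439 and 20049), whereas EEF1A1 was nearly equal in both.

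Further genes among the highest 36 outside the ribosomal and mitochondrial classes included several known from growing neural cells. Midkine (MDK), a secreted growth factor of neural development that is high in neuroblastoma, stood at 8829 and 9164. MARCKSL1, an actin-linking relative of MARCKS, stood at 10333 and 10482, FSCN1, which bundles actin in growth cones, at 7013 and 6949.8, and the tubulins TUBB, TUBA1A and TUBB2B at 8363 and 8410.4, 7265 and 7374, and 5733 and 5714, respectively. EEF1A2, the elongation factor isoform of neurons and muscle, stood at 6852 and 6573, 18.8% of the EEF1A level per kb. In reads it had 13819 and 13670, against 173694 and 179462 for EEF1A1, so its share of reads was smaller. The chromatin proteins PTMA and HMGB2 stood at 10376 and 10166, and 5537 and 5526, respectively, and the splicing factor HNRNPA1 at 11068 and 11081. Ribosomal protein, tubulin, actin, PTMA and HNRNPA1 genes have near-identical copies or pseudogenes, and how reads that fit several places were counted is not recorded in the labels or tables, so their levels are uncertain.

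Messages for ribosomal proteins and elongation factors classically begin with a C followed by a run of pyrimidines, the 5′ terminal oligopyrimidine tract through which mTOR controls their translation. The tract can be read at the start sites of the leading genes in the RefSeq promoter set (GRCh38.p14), shown here from 15 bases before to 15 bases from the annotated start, on the gene's strand, with the tract in capitals. TMSB10 and RGS5 are shown as highly expressed genes in which no tract was found within 2 bases of the annotated start. In TMSB10 a C with a run of pyrimidines lies further upstream in the printed stretch, outside the scored bases.
RPS27: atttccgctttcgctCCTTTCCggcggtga
RPL13A: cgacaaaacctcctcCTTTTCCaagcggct
RPS12: gcgtgcggatgaggcCTCTTTCCCTgccgc
EEF1A1: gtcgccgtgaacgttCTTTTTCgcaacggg
EEF2: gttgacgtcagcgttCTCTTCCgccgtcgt
TMSB10: gggcgccgctcttttgtttcttgctgcagc
RGS5: ttgagcgtctagcccatctctgcgtgactt
These stretches lie at chr1:153990747-153990776 (plus strand), chr19:49487593-49487622 (plus), chr6:132814554-132814583 (plus), chr6:73521018-73521047 (minus), chr19:3985449-3985478 (minus), chr2:84905641-84905670 (plus) and chr1:163321721-163321750 (minus). A tract was scored where a C within 2 bases of the start was followed by at least 4 pyrimidines. It was present in 47 of 67 ribosomal protein promoters in the set (70.1%), in 7 of 13 for translation factors (53.8%) and in 1451 of 12380 for all protein-coding genes (11.7%). Among the 100 highest genes after those 2 classes, 14 of 77 promoters held it (18.2%). The TATA sequence TATAAA, searched on both strands from 40 to 21 bases before the start, was found in 7 of 77 promoters of the 100 highest nuclear genes (9.09%) and in 346 of all 12380 (2.79%). A match describes letters in an annotated window and not a measured start.

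The transcription factors that define the sympathoadrenal lineage were among the highest of all nuclear genes. Of 28 noradrenergic factors listed, 25 were expressed, their median level was 774, and 15 were among the 1655 highest protein-coding genes. PHOX2A, a paired-like homeodomain factor needed for noradrenergic neurons, stood at 8166 and 7693 and ranked 68 of 16555. HAND2, a basic helix-loop-helix factor of sympathetic neurons (chr4:173524969-173530229, hg38, minus strand), stood at 7320.1 and 6965, although an antisense neighbour, HAND2-AS1, shares 30.9% of its coding bases. GATA2 and GATA3, zinc-finger factors that keep sympathetic neurons alive and noradrenergic, reached 5678 and 5509.7, and 4019.5 and 4093, respectively; GATA3 lies at chr10:8053604-8075198 (plus strand). With DBH and CHGA, described below, the 4 marker genes of the cell type ranked between 75 and 192 of 16555 protein-coding genes, so all 4 markers of the labelled cell type were present.

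Within the HAND and GATA families the members differed in level. HAND2 held 78% against 22% for HAND1, at 1995 and 2038. In the GATA family GATA2 took 56%, GATA3 40.6% and GATA4 3.2%, with GATA5 and GATA1 under the expression threshold. In neither of these families did the library ranges of neighbouring members overlap. ISL1, a LIM-homeodomain factor of sympathetic and sensory neurons, stood at 1118 and 1149, and TFAP2B, a neural crest factor, at 1132 and 1126. The T-box genes TBX3 and TBX2 reached 1898 and 1885, and 1305 and 1278, respectively, and the homeobox gene SIX3, better known from the forebrain and eye, 2293 and 2226. At the lower end MYCN stood at 44.7 and 45.6, RORA at 11.6 and 9.79 and GRHL1 at 14.8 and 14.7. INSM1, a zinc-finger factor of neuroendocrine cells, had 2 and 0 reads, although none of its exonic bases are shared with another gene, whereas its relative INSM2 stood at 133 and 135.

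Dopamine beta-hydroxylase, which makes noradrenaline from dopamine inside vesicles, is the best known target of this circuit, and PHOX2A binds homeodomain sites in its promoter. DBH (chr9:133636360-133659344, plus strand) stood at 2990.4 and 2880.1, rank 192. The 250 bases before its RefSeq start (chr9:133636113-133636362, plus strand, GRCh38.p14) are shown with the homeodomain core ATTA in capitals, searched on both strands.
DBH: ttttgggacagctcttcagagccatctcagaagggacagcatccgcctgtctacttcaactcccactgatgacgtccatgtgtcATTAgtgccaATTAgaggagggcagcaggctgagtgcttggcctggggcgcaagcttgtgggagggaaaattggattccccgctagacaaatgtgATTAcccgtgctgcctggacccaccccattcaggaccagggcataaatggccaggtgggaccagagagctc
The core occurred 3 times in this window. At least 3 occurrences, counting overlapping ones separately, were found in 1013 of 12380 promoters (8.2%), and at least 1 in 4384 (35.4%). In the noradrenergic factors' own promoters 9 of 20 (45%) held at least 1. The HAND2 window held 5, a number reached in 285 of all promoters (2.3%). The windows of GATA3, PHOX2A and CHGA held 0, which says only that these letters are not in those windows. The GATA3 window, chr10:8045083-8045332 (plus strand), lies well upstream of the gene span given above.

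**Figure D2:**
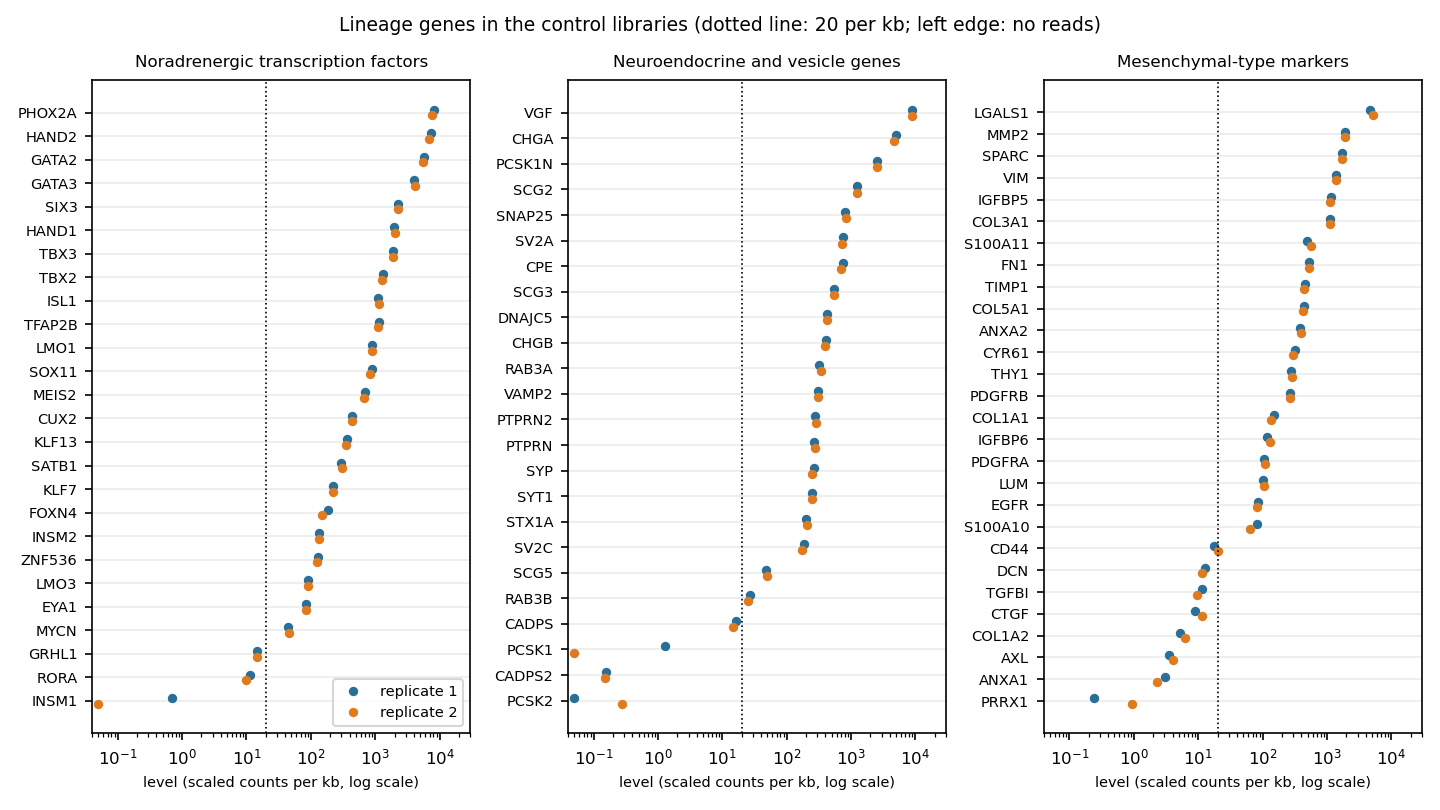
Level of the members of 3 lineage lists in both control libraries (x axis, scaled counts per kb, log scale; 1 row per gene; dotted line, 20 per kb; points at the left edge, no reads). PHOX2A, HAND2, GATA2 and GATA3 head the noradrenergic factors and VGF and CHGA the neuroendocrine genes; the mesenchymal markers spread from LGALS1 (4591 and 5171) to below 1.

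Neuroendocrine genes were expressed broadly with the main prohormone convertases near 0. Of 24 genes listed, 20 were expressed, with a median of 292. VGF, a secreted neuropeptide precursor, stood at 8819 and 8812 and chromogranin A, the main soluble protein of dense-core granules (CHGA, chr14:92923080-92935293, plus strand), at 4942 and 4664. Secretogranin II (SCG2) reached 1236 and 1230.3 and chromogranin B (CHGB) 408 and 395. PCSK1N, an inhibitor of prohormone convertase 1, stood at 2569 and 2551. The convertases themselves were nearly absent from the counts: PCSK1 had 7 and 0 reads and PCSK2 0 and 2, neither with exonic bases shared. Carboxypeptidase E (CPE), which trims the cleaved peptides, stood at 752 and 696. Genes of vesicle fusion were intermediate, with the membrane SNARE SNAP25 at 805 and 827, the vesicle protein SV2A at 763 and 713 and the calcium sensor SYT1 at 251 and 251. The vesicle SNARE VAMP2 stood at 302 and 309, with 92.5% of its coding bases shared with another gene. CADPS2, a priming factor of dense-core vesicles, lay at or under 3 reads, while its relative CADPS stood at 16.2 and 14.9.

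Neuronal structural genes were higher still, with 33 of 36 expressed, a median of 671 and 24 among the 1655 highest genes. STMN2, a microtubule regulator of growing axons, stood at 10813 and 10855 and UCHL1, a neuronal ubiquitin hydrolase, at 6065 and 6151. The surface glycoprotein CD24 reached 2711 and 2688, and STMN1 and STMN3, relatives of STMN2, 2596 and 2623, and 1869.5 and 1869, respectively. MARCKS, an actin-linking kinase substrate, reached 2449 and 2105, CRMP1, a mediator of semaphorin signals, 1747 and 1651 and NES, the intermediate filament of neural progenitors, 1456 and 1479.8. Among the few low members was RBFOX3, whose product is NeuN, an antigen of mature neurons, with 19 and 35 reads. RBFOX1, its splicing-factor relative, stood at 3.88 and 3.29. MAPT, which makes tau, and DCX, the doublecortin of migrating neuroblasts, stood at 73.5 and 76.7, and 97.4 and 95.1, respectively. TUBB3 and PRPH, classical markers of peripheral neurons, were listed at 34.4 and 29, and 2.06 and 0.886, respectively, but share 66.5% and 84.1% of their coding bases with other genes, so these low values are uncertain.

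Genes of the mesenchymal state were mixed in level. Of 28 such markers 20 were expressed (71.4%, close to the 68.1% of all protein-coding genes), at a median of 204. Galectin-1 (LGALS1) stood at 4591 and 5171, the matrix protease MMP2 at 1899 and 1880.5, the matrix glycoprotein SPARC at 1722 and 1741 and the intermediate filament vimentin (VIM) at 1375 and 1382. IGFBP5, which binds insulin-like growth factors, reached 1162 and 1130.3, the fibrillar collagen COL3A1 1129 and 1099 and fibronectin (FN1) 521 and 520.5. Other members often used to define that state were low, namely the hyaluronan receptor CD44 at 17.4 and 20.4, the collagen chain COL1A2 at 5.26 and 6.23, the receptor kinase AXL at 3.47 and 4.12, annexin A1 (ANXA1) at 3.05 and 2.33 and the transcription factor PRRX1 at 0.241 and 0.936. These low genes share at most a few percent of their coding bases.

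Among neural crest and mesenchymal transcription factors, 21 of 29 were expressed, close to the background share. TWIST1, a factor of mesenchymal transition and of cranial neural crest, stood far above the others at 3439 and 3000.0. The inhibitors of basic helix-loop-helix factors ID2, ID1 and ID3 followed at 1671 and 1722, 1386 and 1513, and 1169 and 1186, respectively. TEAD1, the DNA-binding partner of YAP1, stood at 504 and 484 while YAP1 itself stood at 63 and 63.7. SNAI1 and SNAI2, repressors of cadherin genes, stood at 218 and 219.7, and 173 and 160.2, respectively, SOX9 at 154 and 147 and SOX2 at 31.7 and 31.9. The early neural crest factors TFAP2A, MSX1 and PAX7, and RUNX1 and RUNX2, factors of blood and bone, were all under 5 in both libraries.

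Markers of other cell types were checked by the same measure. None of the 9 endothelial genes analysed was expressed, and the defining genes CDH5 and KDR had 1 and 0, and 3 and 3 reads, respectively. Immune markers gave 1 of 7, CD8A at 30.1 and 27.6, while the leukocyte antigen PTPRC had 2 and 4 reads and lysozyme (LYZ) none. Glial markers gave 2 of 9, among them the myelin gene PMP22 at 202 and 208; S100B lay at 22.7 and 14.7, and GFAP, the astrocyte filament, had 2 and 2 reads. Adrenal cortex genes gave 0 of 6, with the steroidogenic factor NR5A1 at 2.33 and 1.41 and the cholesterol carrier STAR at 4.49 and 4.35. Melanocyte genes gave 1 of 8, PMEL at 20.7 and 21 beside MITF at 16.9 and 17.6 and TYR with no reads. Epithelial genes gave 2 of 10, the keratins KRT19 at 38.3 and 37.6 and KRT18 at 23.2 and 28.2, with the adhesion genes CDH1 at 0.322 and 0.625 and EPCAM at 13 and 8.42. Pluripotency genes gave 2 of 6, LIN28B and SOX2, while POU5F1 stood at 1.38 and 1 and NANOG at 0.369 and 0. Regional genes of the central nervous system gave 1 of 15, DLX5 at 105 and 80.4, and 9 lay at or under 3 reads.

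Fibroblast and smooth muscle genes were the exception among the lists of other cell types, with 8 of 13 expressed and a median of 107. That share, 61.5%, was still below the 68.1% of all protein-coding genes. Beside COL3A1 these were the contractile genes TAGLN (353 and 383) and ACTA2 (186 and 189.9), the platelet-derived growth factor receptors PDGFRB (265 and 266) and PDGFRA (107 and 108), THY1 (277 and 283), COL1A1 (150.3 and 136) and the proteoglycan lumican, LUM (100.2 and 104). Decorin (DCN), a defining fibroblast proteoglycan, stood at 12.9 and 11.4, fibroblast activation protein (FAP) at 5.97 and 4.55 and smooth muscle myosin (MYH11) at 1.23 and 1.67. In bulk RNA, many cells with little of a transcript and few cells with much of it cannot be told apart.

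**Figure D3:**
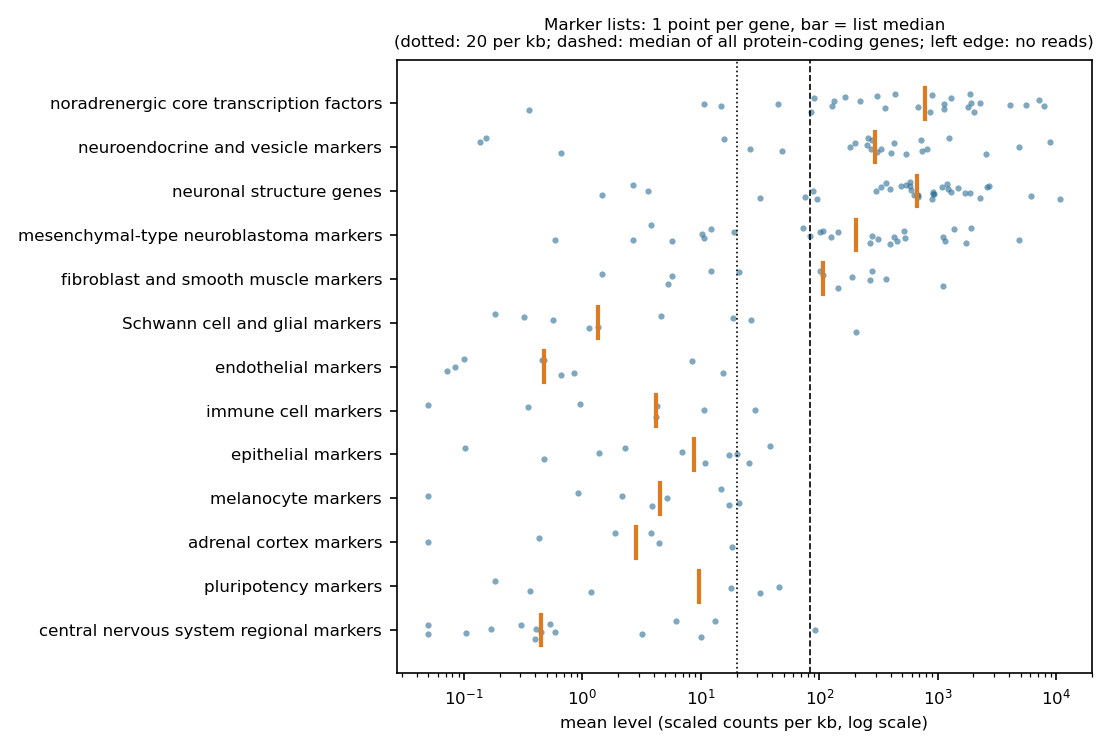
Mean level of each analysed gene (x axis, scaled counts per kb, log scale) in 13 marker lists, with the list median as a bar (dotted line, 20 per kb; dashed line, median of all protein-coding genes). The noradrenergic factors have a median of 774; the endothelial, immune, epithelial, melanocyte, glial, adrenal cortex, pluripotency and regional brain lists have medians under 10.

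The genes that mark neuroblastoma as a tumour were read next. MYC stood at 639 and 666, which was 89.5% of the MYC family level. MYCN made up 6.2% and MYCL, at 28.9 and 33.3, 4.27%. MYCN is the oncogene amplified in many high-risk tumours, and the SH-SY5Y line is known to lack that amplification. The receptor kinase ALK, mutated in familial neuroblastoma, stood at 482 and 490.5, and LMO1, a transcriptional co-regulator linked to neuroblastoma risk, at 896 and 886. Surface targets of immunotherapy were expressed: GPC2 at 743 and 740.1, L1CAM at 683 and 649 and CD276 at 626 and 615. B4GALNT1, the enzyme that makes the surface target GD2 from GD3, stood at 122 and 124. ST8SIA1, the sialyltransferase that makes GD3 on the way to GD2, stood under the threshold at 6.87 and 7.46. LIN28B, which blocks let-7 microRNAs, stood at 44.6 and 46.3 and TERT, the telomerase subunit, at 115 and 121. Of the HOX genes analysed, 8 of 17 were expressed, led by HOXD9 at 1215 and 1137, HOXD8 at 543 and 522 and HOXC4 at 267 and 281; HOXC11 had no reads.

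Most genes of the catecholamine pathway were expressed, but not that of its first enzyme. Of 21 genes, 16 were expressed (76.2%, against 68.1% of all protein-coding genes), with a median of 179.9. Tyrosine hydroxylase (TH), the rate-limiting first enzyme, had 14 and 21 reads, a level of 4.29 and 6.25 and rank 12952, and no exonic base of it is shared. DDC, the decarboxylase that makes dopamine, stood at 448 and 457, and DBH, the next enzyme, at 2990.4 and 2880.1. PNMT, which turns noradrenaline into adrenaline and is typical of chromaffin cells, stood at 45.1 and 44.4. The enzymes that make and recycle the tetrahydrobiopterin cofactor of TH were expressed, with GCH1 at 122 and 142, PTS at 183 and 187, SPR at 266 and 256, PCBD1 at 759.8 and 786 and QDPR at 289.7 and 298. CYB561, which supplies electrons to DBH inside the granule, stood at 783 and 744.

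Storage, uptake and breakdown differed between family members. SLC18A1, the vesicular monoamine transporter of chromaffin cells, stood at 49.4 and 46.9, against 2.41 and 3.51 for SLC18A2, the transporter of neurons. SLC18A2 shares 56.1% of its exonic bases with other genes, so its value is uncertain. The noradrenaline transporter SLC6A2 stood at 380.2 and 391, while the dopamine transporter SLC6A3 had 0 and 1 reads. Of the monoamine oxidases, which break catecholamines down at the mitochondrial surface, MAOB stood at 178 and 193 and MAOA at 109.8 and 106 per kb, but MAOA had more reads (610 and 606 against 516 and 578), so this order rests on the division by gene length.

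A cholinergic vesicle gene was also high. SLC18A3, the vesicular acetylcholine transporter, stood at 1283 and 1234, whereas CHAT, the enzyme that makes acetylcholine and whose gene encloses SLC18A3 in an intron, stood at 18.6 and 11.6. The choline transporter SLC5A7 stood at 28.7 and 33.4, and the esterases BCHE and ACHE at 98.8 and 104, and 65.3 and 62.6, respectively, with the membrane anchor PRIMA1 at 219 and 196. Genes that define GABA and glutamate neurons were near 0: glutamate decarboxylase GAD1 had 5 and 4 reads, the vesicular GABA transporter SLC32A1 stood at 0.773 and 0.749, and the vesicular glutamate transporters SLC17A7, SLC17A8 and SLC17A6 at 3.31 and 3.21, 3.03 and 2.03, and 0 and 0.229, respectively. Housekeeping glutamate genes were expressed, such as glutamine synthetase (GLUL) at 488 and 498. For serotonin, the synthesis enzyme TPH2 had no reads and the transporter SLC6A4 8 and 0 reads.

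Few peptide precursors were expressed, some at high levels. Of 33 precursors 9 were expressed (27.3%, against 68.1% of all protein-coding genes) and 13 lay at or under 3 reads. Vasoactive intestinal peptide (VIP), a cotransmitter of cholinergic sympathetic neurons, stood at 2517 and 2541, rank 220. Galanin (GAL) and neuropeptide Y (NPY), cotransmitters of noradrenergic neurons, stood at 895 and 910.4, and 646 and 696, respectively. Neuromedin U (NMU) and neuromedin B (NMB) followed at 393 and 404, and 341 and 329, respectively, and adrenomedullin (ADM) at 183 and 176. Neurotensin (NTS), POMC, CRH, calcitonin gene-related peptide (CALCA) and CCK were all at or under 3 reads.

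The share of receptor genes expressed differed between lists. Over 12 receptor lists 150 of 305 genes were expressed (49.2%, against 68.1% of all protein-coding genes). Their median level was 17.9, below the 82.9 of all protein-coding genes. The share was 84.4% for cytokine, TGF-beta, Wnt and Notch receptors (38 of 45), but 31.8% for aminergic and 7.7% for chemokine receptors. Among the aminergic receptors 7 of 22 were expressed. ADRA2C, an inhibitory alpha-2 receptor that noradrenergic neurons use to sense their own release, led at 571 and 464, followed by the histamine receptor HRH3 at 193 and 183, ADRA2A at 78.1 and 72.9 and the dopamine receptor DRD2 at 63.1 and 58.4. The alpha-1 receptors ADRA1A and ADRA1D had no reads. The muscarinic receptors CHRM1 and CHRM2 stood at 205 and 213, and 176 and 176, respectively, CHRM3, the subtype often studied in this line, at 20.4 and 21.7, and CHRM4 and CHRM5 under the threshold. The ranges of CHRM1 and CHRM2 did not overlap.

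Of 42 neuropeptide receptors 11 were expressed (26.2%, against 68.1% of all protein-coding genes). Only some receptors of VIP, neuropeptide Y and galanin are named here, and those lay under the threshold. ADCYAP1R1, the receptor for the VIP relative PACAP, led the peptide receptors at 511 and 478, whereas the VIP receptor VIPR2 stood at 10.7 and 11.1. NPY2R, for neuropeptide Y, stood at 16.4 and 14.1, and NPY1R had no reads. The galanin receptor GALR3 lay at or under 3 reads. The endothelin receptor EDNRA stood at 232 and 245, the calcitonin-receptor partner RAMP1 at 259 and 233, and the opioid receptors OPRL1, OPRM1 and OPRD1 at 87.4 and 83.7, 80.5 and 68.7, and 27.5 and 27.4, respectively. CXCR4, the receptor of the chemokine CXCL12 that guides sympathetic precursors, stood at 1099 and 1084 and was the only 1 of 13 chemokine receptors expressed, with 8 at or under 3 reads. Of 19 purine and adenosine receptors 6 were expressed, with the ATP receptor P2RY11 at 65.4 and 65.6 and the ATP-gated channel P2RX7 at 52.7 and 55.3. GABBR1, a subunit of the GABA-B receptor, stood at 130.1 and 127, but its obligate partner GABBR2 at 0.138 and 0. Among 10 metabotropic glutamate and GABA receptors 4 were expressed. Of 25 genes in a list of mainly lipid receptors 9 were expressed, at a median of 9.67, but the leading ones lay above the median gene. The thrombin receptor F2R stood at 235 and 241 and the lysophosphatidic acid receptors LPAR2 and LPAR1 at 188 and 216, and 117 and 116, respectively. Adhesion receptors were led by the latrophilins ADGRL2 and ADGRL1, which bind teneurins and neurexins at synapses, at 865 and 881, and 546 and 534, respectively.

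Growth factor receptors of sympathetic neurons were expressed in part. RET, the signalling receptor of the GDNF family, stood at 836 and 839 and led the receptor tyrosine kinases. Of 52 such kinases 34 were expressed (65.4%, close to the 68.1% of all protein-coding genes). The RET co-receptor GFRA2, for neurturin, stood at 102 and 115 and held 85.2% of the co-receptor level. GFRA1, for GDNF, stood at 6.78 and 6.18. NTRK3, the receptor for the neurotrophin encoded by NTF3, stood at 35.8 and 35.5 and NTRK2, for BDNF, at 4.69 and 4.5. The low-affinity neurotrophin receptor NGFR stood at 28 and 24.6. PTK7, ALK and DDR2 followed RET among the kinases at 527 and 501, 482 and 490.5, and 419.6 and 423, respectively, while MET and AXL stood at 5.09 and 4.25, and 3.47 and 4.12, respectively. CNTFR, the binding subunit for ciliary neurotrophic factor, was the highest cytokine receptor at 1911 and 1886, with its signalling partner IL6ST at 157 and 159. In developmental pathways the Hedgehog transducer SMO stood at 512 and 461, the Wnt receptors LRP5 and FZD2 at 460.0 and 441, and 439.9 and 424, respectively, and NOTCH3 at 377 and 351. Among nuclear receptors 22 of 42 were expressed, led by NR2F6 at 736 and 651, RXRB at 361 and 367 and NR1H2 at 348 and 373; RARA, a receptor for retinoic acid, with which these cells are often differentiated, stood at 329 and 342.

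Ion channel lists differed in the same way. Over 11 channel and pump lists 147 of 317 genes were expressed (46.4%, against 68.1% of all protein-coding genes), at a median of 16.3. The share was 80% for calcium release and store-operated channels (12 of 15) and 68.3% for ion pumps and exchangers (28 of 41). It was 33.3% for potassium channels and 18.8% for GABA-A and glycine receptor subunits. KCNH2, the hERG potassium channel known to help set the resting potential of neuroblastoma cells, stood at 1649 and 1579 and led 81 potassium channel genes, of which 27 were expressed. The leak channel KCNK3 stood at 190.0 and 194. KCNA4, KCNB2, KCNC2, KCNE4 and KCNK17 had no reads. The leading voltage-gated sodium channel pores were even in level: SCN3A, SCN2A, SCN9A and SCN8A, of neuronal and nociceptor types, lay between 53.7 and 63.3 in both libraries. SCN1A and SCN10A stood at 1.71 and 1.14, and 0.155 and 0, respectively.

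Of the calcium channel pores, CACNA1B, the N-type channel of transmitter release, stood at 119.7 and 112 and the T-type CACNA1G at 37.7 and 34.9. The L-type CACNA1C and CACNA1D stood at 17.5 and 16.4, and 11 and 8.87, respectively, and the P/Q-type CACNA1A had 0 and 1 reads. The gamma-type subunits CACNG4 and CACNG7, better known as partners of AMPA receptors, were far higher at 1481 and 1420.0, and 896 and 804, respectively. The ganglionic nicotinic receptor was the leading ligand-gated channel, with CHRNA3 at 816 and 844, CHRNB2 at 311 and 312, CHRNB4 at 176 and 167 and the homomeric subunit CHRNA7 at 68.1 and 59.2. The brain subunit CHRNA4 had 0 and 2 reads and CHRNA6 none. Only 3 of 16 GABA-A and glycine receptor subunits were expressed, among them GABRA3 at 69.5 and 73.8 and GLRB at 56.9 and 44.3. The kainate subunit GRIK5 led the glutamate receptors at 338 and 304, while the AMPA subunit GRIA2 stood at 36.2 and 34.1 and GRIA1 at 0.521 and 0.253. HCN3 and HCN2, pacemaker channels, stood at 297 and 291, and 154 and 141, respectively. ORAI2, a store-operated calcium channel, stood at 338 and 334, and the intracellular release channels split, with the IP3 receptor ITPR1 at 127 and 117 and the ryanodine receptor RYR2 at 1.06 and 0.977. The acid-sensing channels ASIC4 and ASIC3 stood at 242 and 246, and 131 and 158, respectively. TTYH3, a tweety-family membrane protein long classed as a chloride channel, stood at 2938 and 2711.

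**Figure D4:**
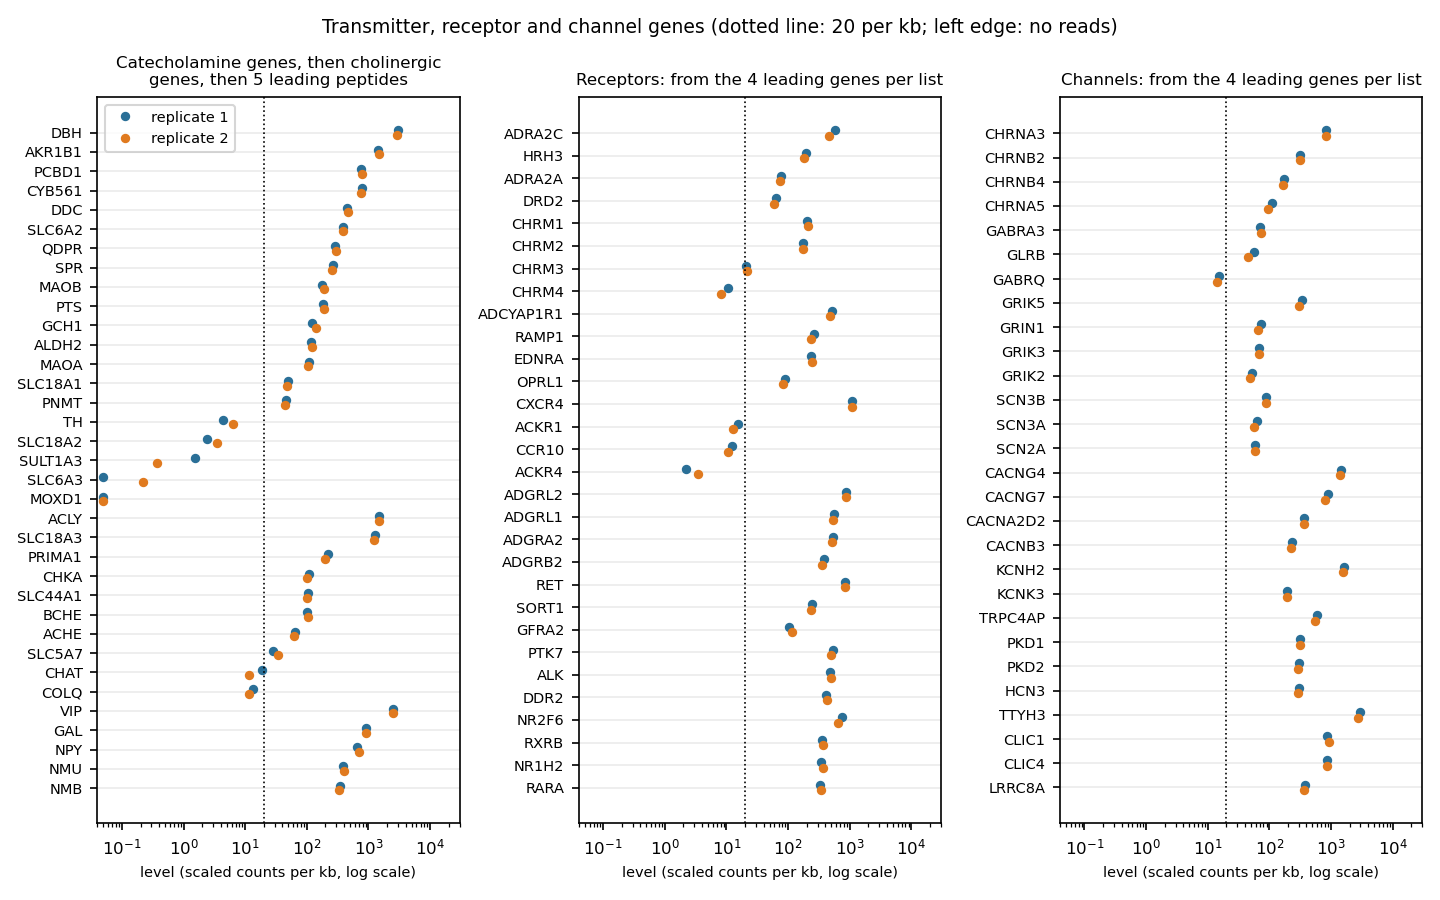
Level in both control libraries (x axis, scaled counts per kb, log scale; 1 row per gene) of catecholamine, cholinergic and leading peptide genes, and of genes among the 4 highest in each of 8 receptor lists and 8 channel lists (dotted line, 20 per kb; left edge, no reads). DBH and TH, SLC18A3 and CHAT, and CXCR4 and the other chemokine receptors lie far apart; KCNH2, CACNG4 and TTYH3 lead the channels.

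Metabolic genes were expressed almost throughout: 305 of 347 genes in 14 lists (87.9%), at a median of 300.4. In glycolysis 23 of 30 genes were expressed. GAPDH stood at 8085 and 8006, ENO1 (enolase) at 6368 and 6457, TPI1 (triose phosphate isomerase) at 3423 and 3484 and PKM (pyruvate kinase) at 2463 and 2419. For lactate dehydrogenase, LDHB, the heart-type subunit, stood at 5202 and 5221 and held 76.5% of the family level per kb. LDHA, the muscle type, held 23.5%, at 1611 and 1598. In reads the gap was smaller, with 15600 and 16146 for LDHB and 10059 and 10285 for LDHA. LDHB led under either measure, but the size of its share rests partly on the division by gene length. The neuronal enolase ENO2, at 922 and 913, made up 12.3% of enolase, and ALDOA 90.8% of aldolase. HK1, the general hexokinase, held 62.5% against 33.6% for HK2. The phosphofructokinases were mixed, with PFKP at 525 and 526, PFKM at 507 and 497 and PFKL at 351 and 340.2; PFKP and PFKM differed by less than 1.12-fold, the 95% spread between libraries at this level, and PFKM led with no division by length.

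Glucose, lactate and pyruvate carriers were expressed less often, 10 of 17 (58.8%, against 68.1% of all protein-coding genes). Among the family members analysed, the glucose transporter SLC2A1 led at 400.3 and 404 and the monocarboxylate transporter SLC16A1 at 376 and 393. SLC16A3, the lactate exporter of glycolytic cells, stood at 12.4 and 14.3. The glucose transporters SLC2A2 and SLC2A3 had no entry and were not analysed. In oxidative phosphorylation 71 of 79 nuclear genes were expressed, at a median of 526. NDUFS5, a small complex I subunit, led at 11868 and 11871, followed by UQCRH of complex III at 5808 and 6212, ATP5B of ATP synthase at 4905 and 4902 and COX6B1 of complex IV at 3353 and 3688. Of the 8 not expressed, COX8C, COX6A2 and COX7A1, isoforms of testis and muscle, lay at or under 3 reads. NDUFV2 and NDUFA7, needed in complex I, stood at 13.6 and 6.4, and 7.04 and 6.83, respectively, but share 84.7% and 78.3% of their coding bases. In the citric acid cycle 34 of 36 genes were expressed, led by MDH2 at 1944 and 1916 and IDH2 at 1294 and 1261. OGDHL, a brain-type relative of oxoglutarate dehydrogenase, stood at 421 and 395, near OGDH at 444 and 445.

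Among genes of energy buffering the highest was creatine kinase B (CKB) at 3473 and 3508, with the creatine transporter SLC6A8 at 644 and 560.2. The creatine synthesis enzymes differed: GAMT stood at 940.4 and 929.7 and GATM, which acts before it, at 13.3 and 8.42. All 27 genes of the pentose phosphate and nucleotide pathways were expressed, led by IMPDH2 at 1588 and 1560.4 and PGD at 1397 and 1398. Serine synthesis was expressed, with PHGDH at 697 and 677 and PSAT1 at 602 and 676. Fatty acid synthase (FASN) stood at 1759 and 1729 and ATP citrate lyase (ACLY), which supplies its acetyl-CoA, at 1499 and 1496. Of the fatty acid oxidation genes HADHA led at 1530.5 and 1520.1, and the brain-type carnitine transferase CPT1C stood at 516 and 534, beside CPT1A at 426 and 434 and the muscle-type CPT1B at 13.1 and 7.52. Prosaposin (PSAP), which activates lysosomal hydrolases, stood at 3864 and 3914 and ornithine decarboxylase (ODC1), the entry to polyamines and a MYC target, at 2163 and 2219. Among antioxidant genes PRDX5 led at 5727 and 5702, followed by GPX1 at 3299 and 3403 and GPX4, the enzyme that protects membranes from lipid peroxides, at 2034 and 2042. SLC7A11, the cystine importer, stood at 3.61 and 6.3. Ferritin light chain (FTL) stood at 6343 and 6374 and the iron exporter SLC40A1 at 60.9 and 69.7.

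**Figure D5:**
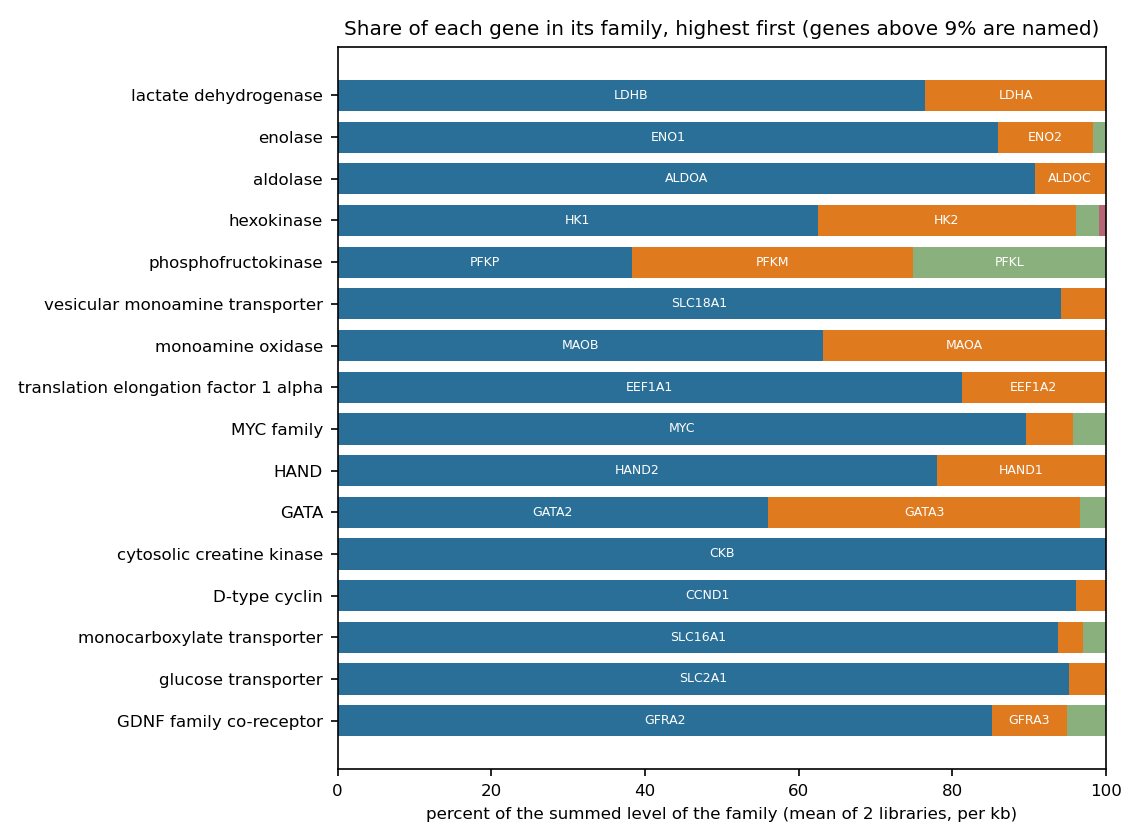
Share of each gene in the summed level of its family (x axis, percent, mean of the 2 control libraries, per kb), highest gene at the left, for 16 families. LDHB, HAND2, MYC, CKB, CCND1 and SLC2A1 each hold over 75% of the analysed level per kb of their family, whereas phosphofructokinase is split among 3 genes.

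Cell cycle genes were expressed almost throughout. Of 36 cell cycle genes 34 were expressed, at a median of 671. Cyclin D1 (CCND1), which starts the cycle with CDK4, stood at 3626 and 3643 and held 96.2% of the D-cyclin level analysed. The replication genes MCM7 and PCNA stood at 3588 and 3541, and 3195 and 3100.3, respectively, and TOP2A and UBE2C, of mitosis, at 2001 and 1985, and 2089 and 2169.9, respectively. The inhibitor CDKN1A, a p53 target, stood at 1279.7 and 1288, whereas CDKN2A stood at 15.6 and 16 and CDKN2B at 0.98 and 1.9. Among 26 apoptosis regulators 21 were expressed. MCL1, a survival protein, stood at 1459 and 1481 and the killer BAX at 1162 and 1117, above BCL2 at 183 and 167. CASP8, the initiator caspase known to be silenced in many neuroblastomas, stood at 9.06 and 7.86, and CASP10, its relative, at 0.131 and 0.127.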

How the data were processed

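Total RNA from the cells was extracted with Trizol and 1 µg went into TruSeq RNA libraries, per the labels' protocols. The submitters' processing notes name FastQC, HISAT2 2.0.4 and hg38; of the read counter, strand setting, annotation release and normalization, nothing is given in the sources used here. The deposited tables head their value column FPKM, per the file headers, but every value in a control library is a whole multiple (tolerance 0.01) of a single step, 0.995 in replicate 1 and 0.965 in replicate 2. The step of replicate 1 lies close to 1, but with a step of 1 only 12.9% of its values would be whole. Read numbers are recovered this way and are used only as a description. The deposited signal is therefore reads divided by 1 factor per library, with no division by length; it is called the scaled count here, and the reads are that signal divided by the step. Levels were scaled counts divided by the deposited gene length in kb, and a gene without a row in a control table was set to 0. Types and positions came from the tables, and shared exonic and coding bases, on either strand, from GENCODE v29, which held 31853 of the 32575 genes, with the same exon length for 92.2%.

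A gene was called expressed at 20 scaled counts per kb in both libraries, and at the floor at 3 reads or fewer in both. Only 1 group was described, so no test between groups was run. In a check for duplicate libraries, the recovered reads of the 2 libraries differed by more than counting noise (chi-square per degree of freedom 1.95 over 17393 genes), so they were kept as 2 samples. Members, 63 gene lists and 21 families were chosen with earlier results of these data known. The text names the 25 highest genes, the up to 8 highest members of each list, the families, the 4 markers, ERCC6 and ERCC8. From each list it also names up to 6 defining members at or under 3 reads in both libraries. Other members, among them TH, CHAT, CD44 and PCSK1, were picked after their values were seen. RefSeq promoters (GRCh38.p14, 250 bases before to 50 after a start) matched 12380 of 16555 genes by symbol or ID. Scripts ran in Python 3.11.15 with pandas 2.3.3, numpy 2.4.6 and matplotlib 3.10.9 and were tested on simulated data. Alternatives varied the threshold, length, scaling, gene set and libraries. Values of some members are not reported here, in text or plots; list counts include them.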

Additional observations from a re-analysis of the deposited data

How the results depend on the processing

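Library choice mattered little: with 1 library left out, 11384 to 11387 protein-coding genes were expressed, the 100 highest held 38.29 to 38.91% of the level, and none of the 63 list counts moved beyond 1.5 times. The threshold mattered most. At 100 per kb 7494 genes were expressed, with 29 transmitter, 80 receptor, 59 channel, 9 other-cell-type and 3 HOX genes; at 5 per kb the last 2 groups had 34 and 13. Levels rescaled to the same sum in each library, with a threshold of 1 on that scale, gave 33 other-cell-type genes expressed against 17; that threshold equals 5.61 and 5.67 per kb, so this setting also lowered the threshold. Coding length from GENCODE v29, chosen after seeing the data because no protein table was used here and the planned RefSeq coding length was not run, also gave 33. The share of the 100 highest genes, 38.6%, became 33.24% with coding length, 20.05% with no division by length, 24.91% without mitochondrially encoded genes, 41.56% without genes whose span overlaps another, and 39.38% without genes sharing 50% or more of their bases, also chosen after seeing the data. Leaving out genes with overlapping spans removed 5068 genes and left 84 cell cycle, ribosomal and translation genes of 133, and 3 HOX genes of 8. In 18 of 21 families the leading gene was the same with deposited, coding and no length; in the other 3, among them phosphofructokinase (PFKM) and monoamine oxidase (MAOA), another gene led with coding length and with none. At 21288892 and 21983668 reads, genes at or under 3 reads cannot be told from 0. No paired analysis was possible because only 1 group was described and nothing was compared between groups.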
